A study of Homo sapiens with 6 samples.

Results

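The genes described here are the glycosyltransferases that start, branch, extend and cap mucin-type O-glycans, with the sialyl- and fucosyltransferases that act on O-linked, N-linked and lipid-linked chains. Members were chosen by symbol: every protein-coding gene of the GALNT, C1GALT1, GCNT, B3GNT, ST6GALNAC, ST3GAL, ST6GAL, ST8SIA and FUT families. This gave 69 genes among 59565 loci in the table, 19922 of them protein-coding. The families were put forward with results of this same comparison in view, so the members' differences are given as a description, with standard errors but without p-values. A member kept its place whatever its level.

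The libraries came from C4-2, a line that descends from LNCaP human prostate cancer cells and grows with little androgen. One group of 3 was labelled parental and the other group of 3 was labelled enzalutamide resistant, written Enz-R below. Enzalutamide is a drug used against prostate cancer that blocks androgen signalling. The labels do not say whether Enz-R cells were in the drug at collection, whether the line is 1 clone, or whether libraries of a group came from separate cultures. Standard errors and p-values therefore reflect how far libraries of a group differ, and that spread may be technical only.

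Total counts were 19400321 to 28247038 in the parental and 15673404 to 23351394 in the Enz-R libraries. The share of mitochondrially encoded genes was 8.78% to 11.3% of counts in parental and 14.5% to 15.5% in Enz-R libraries. All 10 luminal prostate markers were detected in both groups, with a summed level of 9475 to 10079 CPM (counts scaled to a common library size) in parental and 5437 to 5648 CPM in Enz-R libraries. Single luminal markers differed in both directions, with log2 ratios of Enz-R to parental from -2.99 to 0.70. The summed levels of markers of other cell types were far below that of the luminal markers, with fibroblast markers the highest of them. Summed CPM in parental and then Enz-R libraries ran from 3.66 to 4.73 and 3.33 to 3.43 for basal epithelium (4 genes), 60.3 to 63.4 and 49.5 to 58.6 for fibroblasts (6 genes), and 7.31 to 9.76 and 2.94 to 3.43 for endothelium (4 genes). They ran from 2.95 to 3.61 and 2.46 to 3.06 for leukocytes (5 genes), and from 2.99 to 3.81 and 4.93 to 6.08 for neuroendocrine cells (4 genes). A sum need not hold for each marker: the 2 basal markers with enough counts to test had log2 ratios of -6.83 and -0.13. None of the markers was at 0 in all 6 libraries, and their part in the results was not tested.

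Mucin-type O-glycosylation begins in the Golgi, where a polypeptide N-acetylgalactosaminyltransferase (a GALNT enzyme) attaches N-acetylgalactosamine to serine or threonine. This single sugar is the Tn antigen. T synthase, encoded by C1GALT1 and folded with the help of the chaperone encoded by C1GALT1C1, adds galactose to give core 1, the T antigen. GCNT1 then adds a branch that makes core 2, on which B3GNT enzymes and galactosyltransferases build longer chains. Sialic acid added directly to the Tn sugar by ST6GALNAC1 gives sialyl-Tn, a capped structure that is not extended further. ST3GAL enzymes sialylate terminal galactose, ST8SIA enzymes add sialic acid to sialic acid, and FUT enzymes attach fucose, forming among others the H and Lewis antigens. Sialyl-Tn and Lewis structures are long-studied tumour-associated antigens of glandular epithelia, the prostate included.

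Promoter sequences are shown for 4 of the members with large differences between the groups whose RefSeq start lies at or near the annotated 5′ end. They are GALNT7 (lower in Enz-R), GALNT17 (higher), and the neighbours FUT3 and FUT6 (both higher). The sequences are bases upstream of the start from RefSeq (GRCh38.p14), 5′ to 3′ on the strand of the gene. They leave out any base that GENCODE places in the gene. Positions are chr4:173168561-173168752 for GALNT7 and chr7:71131894-71132143 for GALNT17, both on the plus strand. They are chr19:5851475-5851699 for FUT3 and chr19:5839732-5839952 for FUT6, both on the minus strand. Capitals mark a GC box (GGGCGG, or CCGCCC for the other strand) in the GALNT genes and the letters AGAACA, a steroid response half-site, in the FUT genes. FUT1 and FUT4 (both lower) and ST6GALNAC6 (higher) also have a RefSeq start near that end. Their windows hold neither of these motifs and are not shown.
GALNT7: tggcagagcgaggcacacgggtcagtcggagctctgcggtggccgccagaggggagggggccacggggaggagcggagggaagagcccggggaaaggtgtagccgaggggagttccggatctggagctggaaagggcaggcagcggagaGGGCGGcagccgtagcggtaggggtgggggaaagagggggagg
GALNT17: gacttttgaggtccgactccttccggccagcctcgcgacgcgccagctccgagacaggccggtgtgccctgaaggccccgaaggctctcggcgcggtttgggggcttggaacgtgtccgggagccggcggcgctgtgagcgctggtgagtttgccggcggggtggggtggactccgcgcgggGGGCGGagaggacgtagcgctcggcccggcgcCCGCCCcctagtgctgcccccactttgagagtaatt
FUT3: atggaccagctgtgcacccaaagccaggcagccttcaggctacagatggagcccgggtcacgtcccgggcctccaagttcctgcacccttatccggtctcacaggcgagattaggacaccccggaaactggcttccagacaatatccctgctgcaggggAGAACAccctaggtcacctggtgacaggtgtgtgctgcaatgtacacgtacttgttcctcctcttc
FUT6: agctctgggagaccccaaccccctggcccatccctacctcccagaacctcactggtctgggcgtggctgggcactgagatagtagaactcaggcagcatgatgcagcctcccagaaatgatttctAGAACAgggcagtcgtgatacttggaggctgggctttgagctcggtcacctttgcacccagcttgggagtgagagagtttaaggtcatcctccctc

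Promoter windows were matched by symbol for 49 of the 69 members. In the 250 bases before the start, on both strands, AGAACA was present in 7 of these 49 windows (14.3%) and in 12.4% of all 27305 promoters. The 7 were those of FUT3, FUT6, FUT8, GCNT2, GCNT3, GCNT4 and B3GNT5. The forkhead letters TGTTTAC were in 0 of 49 and in 2.98%. GGGCGG was in 31 of 49 (63.3%) and in 42.3%. TATAAA was in 1 (GALNTL6), against 11.1% of all promoters, and the E-box CACGTG was in 3 (6.12%), against 6.49%. The median GC content was 66.8% for the members' windows and 58.0% for all promoters. A match describes letters in a window and is not a measured site.

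In Enz-R cells the transcripts of 3 enzymes that act early on O-glycans were lower by more than 10-fold: ST6GALNAC1, GCNT1 and GALNT16. GALNT17, another gene of the GALNT family, was 16.7-fold higher, and the Lewis enzyme gene FUT3 was 3.09-fold higher. The genes with the highest levels per length, ST3GAL1 and GALNT3, differed by 1.09-fold and 1.15-fold. Levels are CPM on library totals scaled by TMM factors, given as mean ± SD over 3 libraries. A difference is the log2 of the ratio Enz-R to parental, ± the SE of the fit. Called means a p under 0.05 in the quasi-likelihood test of edgeR, after Benjamini-Hochberg adjustment over all 19029 tested genes. RNA was taken in bulk, so fewer cells expressing a gene and less RNA per cell cannot be told apart.

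Of the 69 members, 44 had enough counts to be tested. Called higher in Enz-R were 17 of them, where 32.4% of all tested genes were called higher, and called lower were also 17, where 32.3% of all tested genes were. At least 2-fold higher were 9 members (11.0% of all tested genes) and at least 2-fold lower were 9 (8.66% of all tested genes). For 34 of the 44, or 77.3%, the libraries of the groups did not overlap, as for 68.9% of all tested genes. The median log2 fold change was -0.03 over these members and 0.01 over all tested genes. The median size of the change, without sign, was 0.71 and 0.46. Since this comparison was in view when the families were chosen, and since a gene high in only 1 group passes the filter because of that group, nothing is read from these counts. The same holds for the counts by family and by list below. Their background is also 32.4% called higher and 32.3% called lower among all tested genes.

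**Figure D1:**
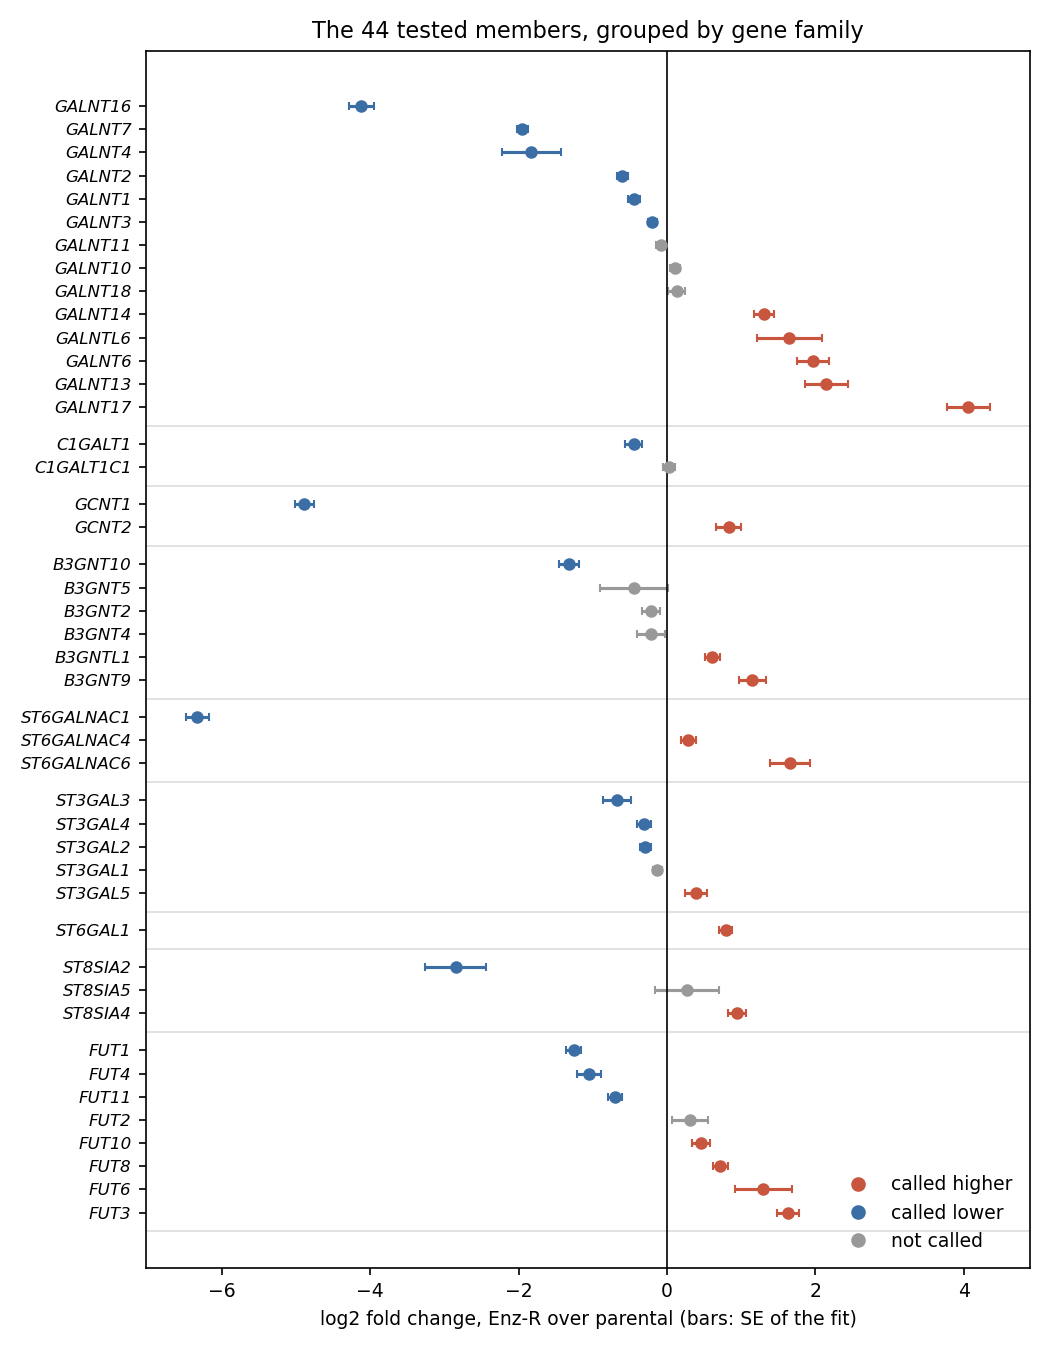
Log2 fold change (Enz-R to parental) of the 44 tested members, by family, with bars for the SE of the fit (3 libraries per group). Red points were called higher, blue points called lower and grey points not called. Each family with at least 2 tested members has points on both sides of zero, and the extremes are ST6GALNAC1 at -6.33 and GALNT17 at 4.06.

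The other 25 members were too low to test. GALNT8, GALNTL5 and ST8SIA3 had 0 counts in all 6 libraries, which allows up to 0.0434 CPM in the parental and 0.0552 CPM in the Enz-R group (3 counts over the group, counting error only). For GALNT8, 59.1% of the stretches as long as a read (150 bases) are shared with other genes, so its limit covers assigned reads only. The untested member with the most counts was GCNT7, with 31 parental and 22 Enz-R counts. Among these 25, ST6GALNAC2, another sialyltransferase of core 1 and Tn, had 19 parental and 4 Enz-R counts. The ratio of depth-scaled group sums was 0.268 with a 95% counting interval of 0.0663 to 0.806, and the libraries of the groups overlapped. ST6GALNAC2 shares 38.5% of its exonic bases on the same strand with ENSG00000284526, which had 15 and 15 counts. Its value thus depends on how shared reads were assigned. FUT7, which makes sialyl Lewis x in leukocytes, had 14 and 26 counts, a ratio of 2.36 (1.19 to 4.90). It shares 39.2% of its exonic bases with LINC02908 on the opposite strand, which had 143 and 221 counts and was called higher (0.99 ± 0.18), and the reads of the pair cannot be told apart without strand. These intervals cover counting error only.

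The initiating GALNT family had 20 members, of which 14 were tested, with 5 called higher, 6 lower and 3 not called. Of all tested genes 32.4% were called higher and 32.3% lower. GALNT3, an enzyme known for glycosylating the hormone FGF23, had the highest level per length of the family. It was at 175, 168 and 193 CPM in the parental and 158, 150.1 and 158 CPM in the Enz-R libraries. The groups did not overlap, yet the difference was small, at -0.20 ± 0.06, and the call was lost in 2 of 14 alternative analyses. GALNT2, a broadly expressed initiator, was at 101, 102 and 113 CPM in parental and 70.3, 72.0 and 66.5 CPM in Enz-R libraries (-0.60 ± 0.07). GALNT1, another broadly expressed initiator, was also lower (-0.44 ± 0.08).

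GALNT7 prefers peptides that already carry a sugar and so adds to sites that other GALNT enzymes have started. The gene lies at chr4:173168753-173323967 (GRCh38, plus strand). It was at 78.7, 82.4 and 80.2 CPM in the parental libraries and at 22.8, 19.5 and 19.9 CPM in the Enz-R libraries, a difference of -1.95 ± 0.07. All 3 Enz-R libraries were far below all parental ones. GALNT10, which also prefers glycosylated peptides, was at 44.3 ± 3.29 and 48.0 ± 0.961 CPM and was not called (0.11 ± 0.07).

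GALNT16, at chr14:69259277-69357033, went from 15.3, 13.9 and 14.9 CPM in parental to 1.05, 0.647 and 0.777 CPM in Enz-R libraries. The change was -4.12 ± 0.17, or 17.3-fold, and the gene stayed detected in each Enz-R library. GALNT4, encoded in a single exon that lies within a read-through locus, was also lower (-1.83 ± 0.40) from a parental mean of 0.866 ± 0.162 CPM. With 93.2% of its exonic bases shared with POC1B-GALNT4, its value depends on how shared reads were assigned. GALNT4 had 60 parental and 13 Enz-R counts, and POC1B-GALNT4 went the other way with 14 and 28, a ratio of 2.55 (95% counting interval 1.30 to 5.23).

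GALNT17, at chr7:71132169-71713600, was barely counted in parental cells, at 0.139, 0.351 and 0.342 CPM. In Enz-R libraries it reached 4.20, 4.94 and 4.27 CPM, a difference of 4.06 ± 0.29 or 16.7-fold. The lowest Enz-R library was thus far above the highest parental one, although the parental group held only 18 counts in all.

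The other GALNT genes called higher were also low in parental cells. GALNT13, known from neural tissue, had 0.313, 0.551 and 0.488 CPM in parental and 1.96, 2.12 and 1.81 CPM in Enz-R libraries (2.15 ± 0.29). GALNT6, often studied in breast cancer, had 1.29, 0.952 and 1.27 CPM in parental and 5.07, 5.29 and 3.43 CPM in Enz-R libraries (1.97 ± 0.22). The third Enz-R library was the lowest of its group but remained above every parental one. GALNT14, known for glycosylating death receptors, had 4.39, 5.06 and 5.61 CPM in parental and 12.1, 12.5 and 12.6 CPM in Enz-R libraries (1.31 ± 0.13). GALNTL6, from 0.323 ± 0.165 to 0.945 ± 0.408 CPM, was called higher (1.65 ± 0.44) without reaching 1 CPM. GALNT11 and GALNT18 were not called, at -0.08 ± 0.07 and 0.13 ± 0.11.

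**Figure D2:**
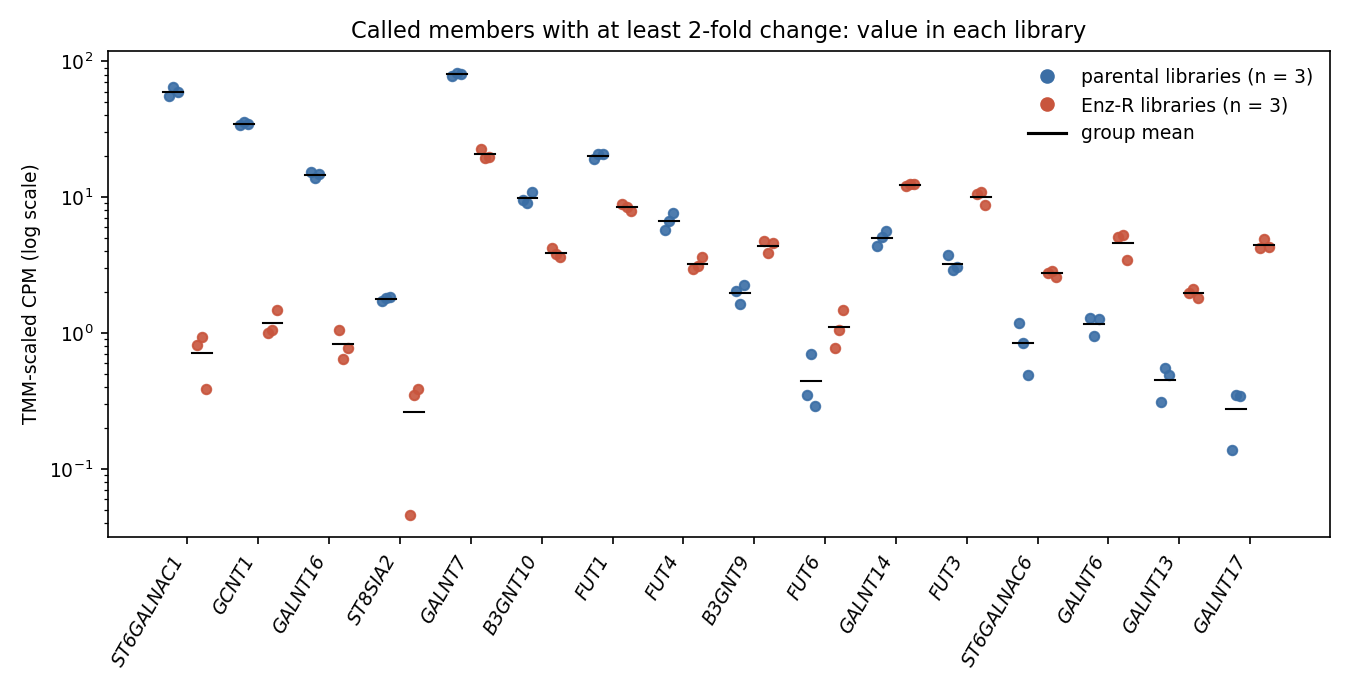
TMM-scaled CPM (log scale) in each of the 3 parental (blue) and 3 Enz-R (red) libraries for the 16 members that were called, differed at least 2-fold and reached 1 CPM in the higher group, with bars at the group means. In each of the 16 the libraries of the groups are apart, which is no separate result, since they were chosen by call and size of change. Of all tested genes 68.9% were apart. The smallest gap is for FUT6, where the highest parental library was at 0.701 and the lowest Enz-R library at 0.777 CPM.

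Differences were small for the core 1 genes. C1GALT1 was at 12.6, 13.1 and 11.0 CPM in parental and 8.77, 8.12 and 10.0 CPM in Enz-R libraries, and was called lower (-0.45 ± 0.12). Its chaperone gene C1GALT1C1 was at 28.3, 25.9 and 23.6 CPM in parental and 28.5, 25.5 and 25.4 CPM in Enz-R libraries. These groups overlapped and the gene was not called (0.03 ± 0.08). The retrogene C1GALT1C1L had 1 count in all libraries together.

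Branching differed most through GCNT1, the core 2 enzyme, at chr9:76419850-76651203 on the plus strand. It was at 34.0, 35.9 and 34.4 CPM in the parental libraries and 1.00, 1.06 and 1.49 CPM in the Enz-R libraries. The difference was -4.89 ± 0.13, or 29.7-fold, with tight values in the parental group. The Enz-R values rest on 22, 18 and 23 counts. GCNT2, which makes I branches on polylactosamine chains, went from 3.52, 4.16 and 3.61 CPM to 8.27, 5.47 and 6.02 CPM (0.83 ± 0.17). GCNT3, the mucin-type core 2 and core 4 enzyme, had 15 and 14 counts and GCNT4 had 2 and 4 counts, so neither was tested. Per kilobase of exon, the summed level of the 5 GCNT genes was 4.43 ± 0.140 CPM in parental and 1.10 ± 0.139 CPM in Enz-R cells. GCNT1 made up 84.8% ± 0.395 of that sum in parental and 11.8% ± 3.17 in Enz-R cells, while GCNT2 made up 9.35% ± 0.561 and 65.2% ± 6.37.

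The extending B3GNT genes were mixed, with 6 of 10 tested, 2 called higher, 1 lower and 3 not called (all tested genes: 32.4% higher and 32.3% lower). B3GNT2, the main enzyme of polylactosamine extension, was at 8.81, 10.6 and 10.2 CPM in parental and 8.72, 8.94 and 7.90 CPM in Enz-R libraries and was not called (-0.21 ± 0.12). The gene that GENCODE 29 names B3GNT10, now B3GALT9, went from 9.47, 9.12 and 10.9 CPM to 4.25, 3.82 and 3.62 CPM (-1.32 ± 0.14). It shares 16.1% of its exonic bases with FBXW2 on the opposite strand, and strand-specific counting is not stated. B3GNT9 went from 2.05, 1.65 and 2.25 CPM to 4.75, 3.88 and 4.59 CPM (1.15 ± 0.18). It shares 14.9% of its exonic bases with PHAF1 on the opposite strand, and PHAF1 was itself lower (-0.68 ± 0.07). B3GNTL1 was called higher (0.61 ± 0.10), and B3GNT4 (-0.21 ± 0.19) and B3GNT5, which starts lacto-series glycolipids (-0.44 ± 0.46), were not called. The same limit of strand holds for them. B3GNTL1 shares 11.4% of its exonic bases with TBCD, a gene at 136 ± 5.25 CPM in parental and 131 ± 7.10 CPM in Enz-R cells. For B3GNT4 20.7% are shared with DIABLO, and for B3GNT5 16.2% with MCF2L2.

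Among sialyltransferases of the N-acetylgalactosamine residue, ST6GALNAC1, the sialyl-Tn synthase gene at chr17:76624761-76643838 on the minus strand, carried the largest difference of all members. Its parental libraries were at 55.8, 64.3 and 59.6 CPM and its Enz-R libraries at 0.822, 0.941 and 0.388 CPM. The fold was 80.7 (-6.33 ± 0.15). By level per kilobase of exon it ranked 3 of the 69 members in parental cells and 37 in Enz-R cells. ST6GALNAC4, which adds a further sialic acid to sialylated core 1, was at 33.6, 27.9 and 30.0 CPM in parental and 42.1, 38.1 and 31.2 CPM in Enz-R libraries. It was called higher by a small amount (0.29 ± 0.10), with the third Enz-R library inside the parental range, and the call was lost in 5 of 14 alternative analyses. ST6GALNAC6, which acts on gangliosides and Lewis-type chains, rose from 1.18, 0.851 and 0.488 CPM to 2.79, 2.88 and 2.59 CPM (1.66 ± 0.27). As 47.0% of its exonic bases are shared on the same strand with the overlapping gene ENSG00000257524, which was also higher (1.36 ± 0.27), the values of these genes are not independent.

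The make-up of the ST6GALNAC family therefore differed between the groups. Per kilobase of exon, ST6GALNAC1 made up 59.3% ± 3.86 of the family's summed level in parental and 1.36% ± 0.433 in Enz-R cells. ST6GALNAC4 made up 39.6% ± 3.87 and 94.3% ± 1.03. The family's summed level was 29.3 ± 0.279 CPM per kilobase in parental and 15.0 ± 2.17 in Enz-R cells.

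**Figure D3:**
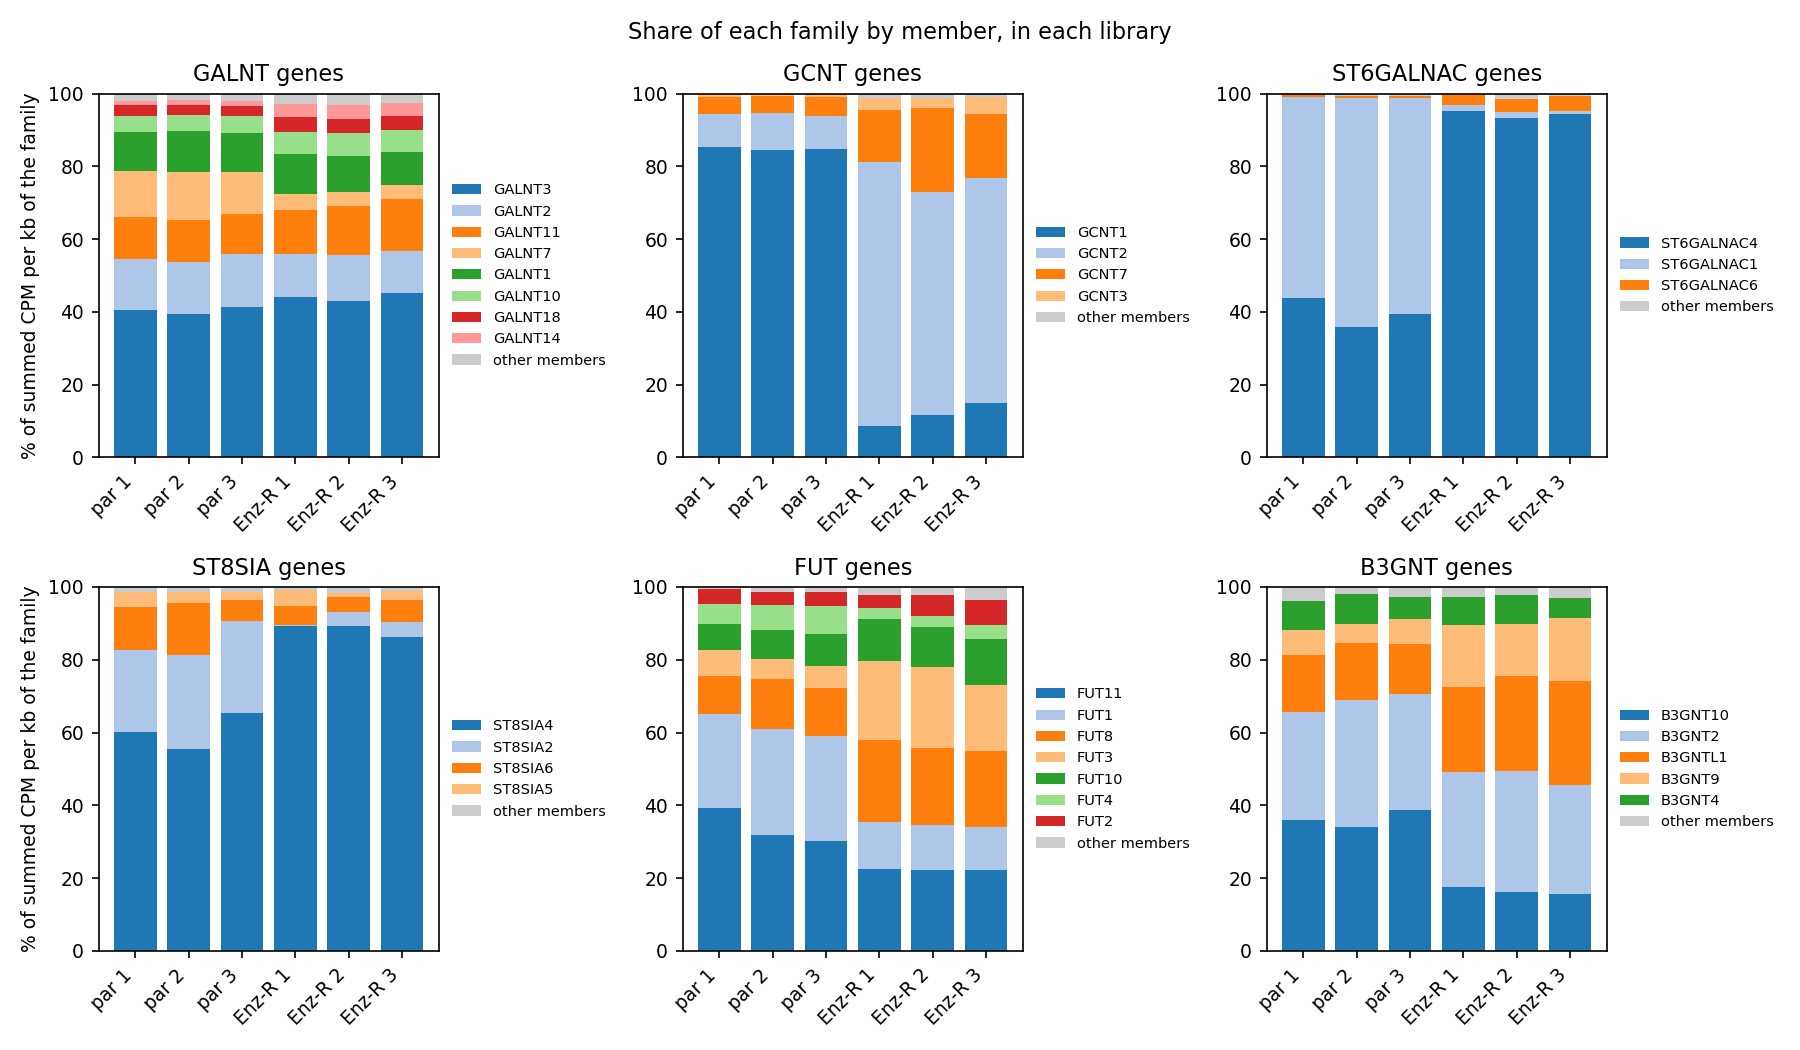
Share of the summed CPM per kilobase of exon taken by each member, in each of the 6 libraries, for the GALNT, GCNT, ST6GALNAC, ST8SIA, FUT and B3GNT families (par, parental). GCNT1 and ST6GALNAC1 take 84.8% and 59.3% of their families in parental and 11.8% and 1.36% in Enz-R cells, whereas GALNT3 takes 40.4% and 44.0% of its family.

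Of the ST3GAL family 5 of 6 members were tested, with 1 called higher, 3 lower and 1 not called (all tested genes: 32.4% higher and 32.3% lower). ST3GAL1, which sialylates core 1, had the highest level per length of all members in both groups and was at 440.3, 458 and 462 CPM in parental and 423, 424 and 397 CPM in Enz-R libraries. It was not called (-0.13 ± 0.06), although the libraries did not overlap, and it made up 85.2% ± 0.315 and 86.4% ± 1.40 of the family's level per length. ST3GAL2, which also sialylates core 1 and gangliosides, was at 30.2, 32.9 and 33.4 CPM in parental and 24.8, 26.6 and 27.3 CPM in Enz-R libraries (-0.29 ± 0.07). ST3GAL4, active on N-glycans and in sialyl Lewis x synthesis, was at 22.2, 20.4 and 21.8 CPM in parental and 16.4, 16.5 and 19.3 CPM in Enz-R libraries (-0.31 ± 0.09). ST3GAL3 was lower (-0.67 ± 0.19), and ST3GAL5, the GM3 ganglioside synthase gene, was called higher with overlapping groups (0.39 ± 0.15), a call lost in 7 of 14 alternative analyses.

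ST6GAL1, which caps N-glycans with sialic acid, was at 12.5, 13.5 and 14.6 CPM in parental and 24.9, 23.5 and 21.6 CPM in Enz-R libraries (0.79 ± 0.09). Its relative ST6GAL2 had 1 count in all libraries together. The polysialyltransferase genes ST8SIA2 and ST8SIA4, whose enzymes build polysialic acid on the adhesion molecule NCAM, differed in opposite directions. ST8SIA2 fell from 1.71, 1.80 and 1.85 CPM to 0.0457, 0.353 and 0.388 CPM (-2.85 ± 0.41). The Enz-R values rest on only 1, 6 and 6 counts, too few to compare those libraries with each other. ST8SIA4 rose from 6.06, 5.11 and 6.34 CPM to 11.8, 10.9 and 10.9 CPM (0.94 ± 0.12). Their shares of the ST8SIA sum per kilobase were 24.5% ± 1.86 and 60.4% ± 4.92 in parental, and 2.77% ± 2.01 and 88.3% ± 1.64 in Enz-R cells. ST8SIA5, at under 1 CPM on average in each group, was not called (0.27 ± 0.43).

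Of the 11 fucosyltransferase genes 8 were tested, with 4 called higher, 3 lower and 1 not called (all tested genes: 32.4% higher and 32.3% lower). FUT1, which makes the H antigen, was at 19.2, 20.9 and 20.8 CPM in parental and 8.86, 8.53 and 7.96 CPM in Enz-R libraries (-1.26 ± 0.10). FUT2, the secretor enzyme gene, which makes the same linkage and lies nearby on chromosome 19, was at 2.37, 2.05 and 2.15 CPM in parental and 1.78, 2.94 and 3.62 CPM in Enz-R libraries. It was not called (0.31 ± 0.24), and the Enz-R libraries lay on both sides of the parental ones.

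The Lewis enzyme gene FUT3, at chr19:5842888-5851474 on the minus strand, was at 3.73, 2.90 and 3.07 CPM in parental and 10.6, 10.9 and 8.80 CPM in Enz-R libraries (1.63 ± 0.15). FUT6, its neighbour at chr19:5830610-5839731 on the same strand, makes Lewis x type structures. It went from 0.348, 0.701 and 0.293 CPM to 0.777, 1.06 and 1.49 CPM (1.30 ± 0.38). The printed promoters of both hold AGAACA, as 12.4% of all promoters do. FUT5, the closest relative of FUT3, had 1 count in all libraries together. Stretches as long as a read (150 bases) are shared with other genes for 4.1% of the positions of FUT3, 3.0% of FUT6 and 81.2% of FUT5, so counts of FUT5 in particular could be split among copies.

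FUT4, which makes Lewis x, changed in the opposite direction to FUT3 and FUT6, from 5.75, 6.71 and 7.71 CPM to 2.97, 3.12 and 3.62 CPM (-1.05 ± 0.16). It shares 11.3% of its exonic bases with PIWIL4 on the same strand. FUT8, which adds core fucose to N-glycans, went from 11.8, 15.4 and 14.5 CPM to 23.8, 22.3 and 21.9 CPM (0.72 ± 0.10). FUT11 had the highest mean level per length of the family, at 5.66 ± 0.923 CPM per kilobase in parental and 3.49 ± 0.0327 in Enz-R cells. In Enz-R cells the mean of FUT11 lay within the spread of FUT8 (3.39 ± 0.151) and of FUT3 (3.24 ± 0.360). FUT11 was at 32.9, 26.0 and 24.4 CPM in parental and 17.3, 17.2 and 17.0 CPM in Enz-R libraries (-0.70 ± 0.10). FUT10 was called higher (0.46 ± 0.12). The summed level of the family was nearly equal, at 16.7 ± 0.303 CPM per kilobase in parental and 15.7 ± 0.101 in Enz-R cells. Within that sum the share of FUT3 was 6.21% ± 0.726 and 20.6% ± 2.17, and that of FUT1 was 28.0% ± 1.83 and 12.4% ± 0.611.

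In the order of levels per kilobase of exon, ST3GAL1 (51.2 ± 1.31 CPM per kilobase in parental and 46.8 ± 1.76 in Enz-R cells) and GALNT3 (38.1 ± 2.72 and 33.2 ± 0.978) were first and second in both groups. In parental cells ST6GALNAC1 followed at 17.4 ± 1.23, then C1GALT1C1 at 14.5 ± 1.32 and GALNT2 at 13.6 ± 0.872. The mean of GALNT2 lay within the spread of C1GALT1C1. GALNT7 at 11.7 ± 0.270 and ST6GALNAC4 at 11.6 ± 1.08 lay within each other's spread. In Enz-R cells C1GALT1C1 at 14.8 ± 0.975 and ST6GALNAC4 at 14.1 ± 2.09 came next and did not differ beyond their spread. GALNT7 ranked 6 in parental and 14 in Enz-R cells, GCNT1 ranked 15 and 41, and GALNT17 ranked 48 and 26.

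**Figure D4:**
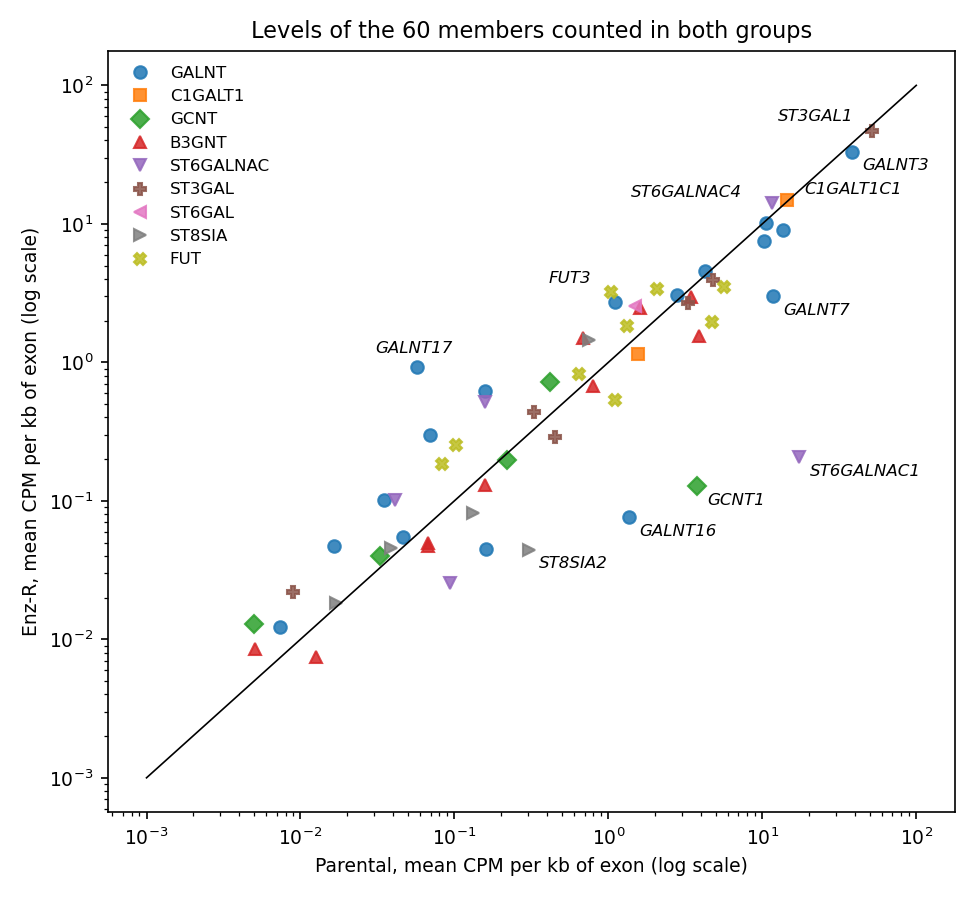
Mean CPM per kilobase of exon in parental (x axis) and Enz-R cells (y axis), both on log scales, for the 60 members with counts in both groups. Marker shape and colour give the family, and the line marks equal levels. ST6GALNAC1, GCNT1, GALNT16 and ST8SIA2 lie below the line and GALNT17 lies above it, while ST3GAL1 and GALNT3 lie at the top near the line.

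Genes that supply, extend or carry these glycans were followed in 9 lists with 85 genes. Of these 66 were tested, with 19 called higher, 28 lower and 19 not called, and their median log2 fold change was -0.17. Of all tested genes 32.4% were called higher and 32.3% lower, with a median of 0.01. With total count scaling in place of TMM the pathway genes called were 13 higher and 33 lower. These lists, like the families, were chosen with earlier results of the data known, so nothing is read from their counts. The p-values printed for single genes are adjusted over all 19029 tested genes. They describe this comparison and give no independent support, since those genes were named for the size of their change. In the sialic acid supply list, 1 of 5 genes was called higher and 3 lower. SLC35A1, the transporter of CMP-sialic acid into the Golgi, rose from 1.57, 1.80 and 1.51 CPM to 3.93, 3.29 and 5.11 CPM (1.33 ± 0.21, edgeR adjusted p = 4.48e-05). CMAS, which activates sialic acid to CMP-sialic acid, fell (-0.47 ± 0.08, edgeR adjusted p = 8.25e-05), as did NANP, the preceding phosphatase (-0.43 ± 0.11, edgeR adjusted p = 0.00363). Of 5 tested genes for sialic acid removal and acetylation, 2 were called lower and 0 higher by edgeR, namely the sialidase gene NEU3 (-0.37 ± 0.08) and the acetyltransferase gene CASD1 (-0.43 ± 0.08).

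For fucose supply, 1 of 6 genes was called higher and 2 lower. GFUS, which makes GDP-fucose, rose from 60.4 ± 1.32 to 102 ± 6.62 CPM (0.75 ± 0.06, edgeR adjusted p = 7.53e-08). FPGT, of the fucose salvage route, and GMDS, the first enzyme of GDP-fucose synthesis, were lower (-0.51 ± 0.12 and -0.26 ± 0.08). In the amino sugar list 4 of 11 were higher and 4 lower. UAP1, which makes UDP-N-acetylhexosamines, fell from 205, 208 and 199 CPM to 101, 94.9 and 95.9 CPM (-1.07 ± 0.06, edgeR adjusted p = 7.41e-10). PGM3, the enzyme before it in the hexosamine pathway, was lower (-0.95 ± 0.07), and UAP1L1, a paralogue of UAP1, was higher (0.92 ± 0.09).

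Of the galactosyl and other N-acetylgalactosaminyl transferases, 12 of 17 were tested, with 9 called lower and 2 higher, where 32.3% and 32.4% of all tested genes were. B3GALT4, a galactosyltransferase of ganglioside synthesis, fell from 15.2, 13.9 and 16.4 CPM to 0.822, 1.35 and 0.777 CPM (-3.95 ± 0.18, edgeR adjusted p = 8.76e-11). B4GALT6, a lactosylceramide synthase gene, went from 12.9 ± 1.33 to 4.01 ± 0.166 CPM (-1.69 ± 0.13, edgeR adjusted p = 2.66e-08), and B4GALT1, a main galactosyltransferase of N-glycans, from 149.9 ± 4.13 to 88.6 ± 10.1 CPM (-0.76 ± 0.08). Among N-glycan branching genes 1 of 6 tested was higher and 3 lower. MGAT5, whose branch is a preferred site of polylactosamine, fell from 65.2 ± 2.56 to 31.1 ± 1.95 CPM (-1.07 ± 0.07, edgeR adjusted p = 4.12e-09). MGAT2 was lower (-0.89 ± 0.29) and MGAT4A, another branching enzyme gene, was higher (0.57 ± 0.13).

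Of the mucins and other carriers of O-glycans, 10 of 17 were tested, with 5 called higher and 2 lower. The gel-forming mucin gene MUC5AC fell from 31.5, 28.6 and 28.9 CPM to 5.12, 4.88 and 6.86 CPM (-2.41 ± 0.12, edgeR adjusted p = 1.61e-10). The membrane mucin gene MUC4 rose from 2.47, 1.85 and 1.27 CPM to 6.81, 5.88 and 6.79 CPM (1.77 ± 0.20, edgeR adjusted p = 1.87e-06). MUC5B, another gel-forming mucin gene, rose from 2.26, 1.65 and 1.71 CPM to 5.80, 6.06 and 5.37 CPM (1.59 ± 0.18, edgeR adjusted p = 1.26e-06). The groups did not overlap for any of these 3 mucins, which were named for the size of their change. Over the list the groups did not overlap for 70.0% of the tested genes, and over all tested genes for 68.9%.

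For transferases that attach O-linked fucose, mannose or glucose to proteins, 3 of 7 were higher and 3 lower. POFUT1, which fucosylates Notch receptors, was lower (-0.73 ± 0.06), POMT2, which starts O-mannose chains, was higher (0.59 ± 0.07), and POMGNT1, which extends them, was lower (-0.33 ± 0.06). Of 4 tested galectins, which bind galactose-containing glycans, 2 were higher and 0 lower by edgeR. They were LGALS4 (0.84 ± 0.19, edgeR adjusted p = 0.00117) and LGALS8 (0.72 ± 0.07, edgeR adjusted p = 3.10e-07).

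For the 16 members that were called, differed at least 2-fold and reached 1 CPM in the higher group, flanking genes were examined. These were the nearest 2 tested protein-coding genes on each side, with no limit on distance. At 9 of the 16 (56.2%), at least 1 such neighbour was called in the same direction by at least 2-fold. The same held for 46.4% of the 1990 tested protein-coding genes that meet this rule, so the members' share is near the background. For ST6GALNAC6 that neighbour was ENSG00000257524, with which it shares exons. GCNT1 is followed on the opposite strand by PRUNE2, which was at 101, 126 and 117 CPM in parental and 8.45, 6.06 and 7.44 CPM in Enz-R libraries (-3.95 ± 0.11). These genes overlap, and 262 exonic bases (2.8% of those of GCNT1) are shared on opposite strands. The neighbours beyond them, RFK and VPS13A, were at -0.48 ± 0.09 and -0.86 ± 0.07.

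Of the neighbours of GALNT7, AADAT, an aminotransferase gene, was at 86.7, 86.5 and 81.7 CPM in parental and 6.17, 4.06 and 4.72 CPM in Enz-R libraries (-4.07 ± 0.11). AADAT lies far off at chr4:170060222-170091699, and GALNTL6, which was higher, lies between it and GALNT7. Next to GALNT17, AUTS2 went from 7.56, 7.21 and 6.20 CPM to 25.3, 22.9 and 25.2 CPM (1.80 ± 0.10), whereas POM121 on the other side was lower (-1.43 ± 0.07). GALNT13, at chr2:153871913-154453849, is followed by unlike neighbours. KCNJ3, a potassium channel gene, had 543 parental and 2 Enz-R counts. NR4A2, a nuclear receptor gene further off at chr2:156324432-156342348, was higher (2.02 ± 0.24). FUT3 and FUT6 flank each other, and NDUFA11, a gene of respiratory complex I, was higher beside them (1.08 ± 0.11). The 4 tested protein-coding neighbours of ST6GALNAC1 lay between -0.63 and 0.17, and those of GALNT16 between -0.77 and 0.23. The large falls of both genes were not shared by these neighbours. That set leaves out other loci close by. ST6GALNAC2 lies between ST6GALNAC1 and its neighbour PRCD. With 19 parental and 4 Enz-R counts it was too low to test, and its groups overlapped. ENSG00000280073, which overlaps the end of GALNT16 on the same strand and is not protein-coding, had 58 and 5 counts (-3.09 ± 0.59).

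**Figure D5:**
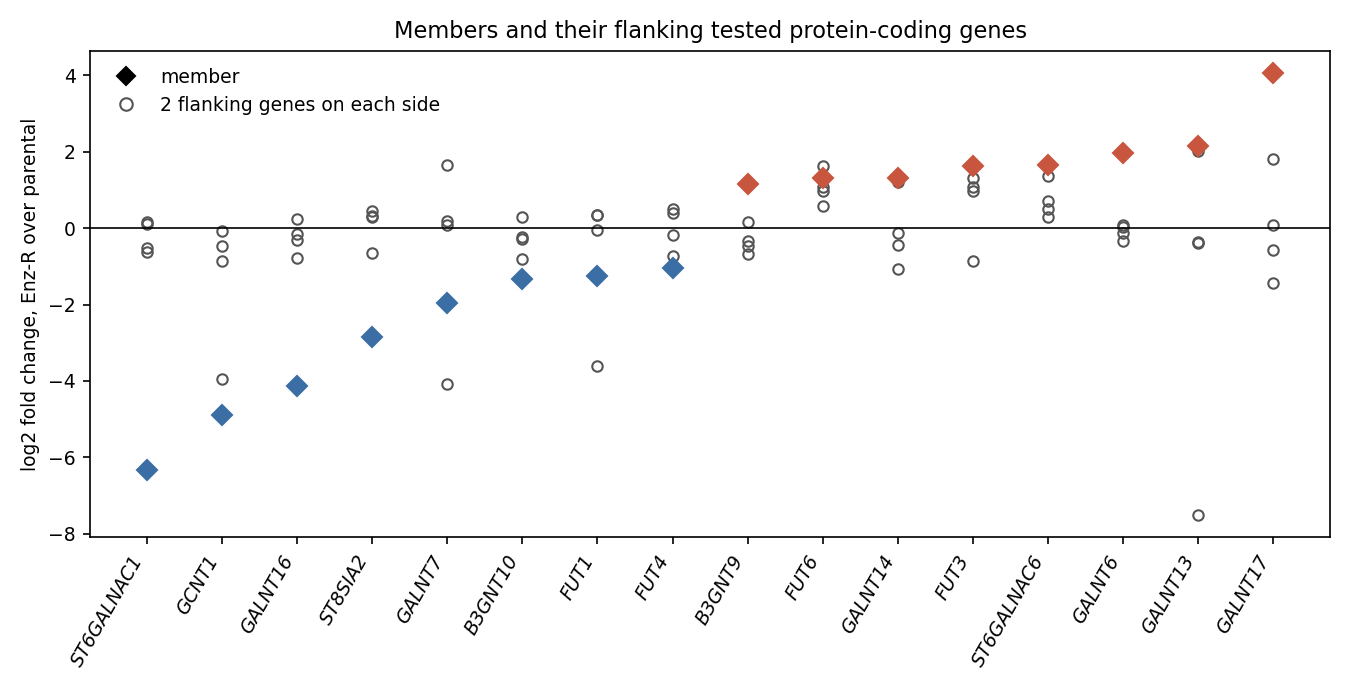
Log2 fold change (Enz-R to parental) of the 16 members plotted by library (filled diamonds, blue for lower and red for higher) and for the 2 nearest tested protein-coding genes on each side (open circles). The circles of ST6GALNAC1 lie between -0.63 and 0.17 and those of GALNT16 between -0.77 and 0.23. GCNT1, GALNT7 and FUT1 each have 1 circle at or below -3.60. The lowest circle, at -7.51, is KCNJ3 beside GALNT13, a member that was higher.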

How the data were processed

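Bulk RNA-seq gene counts of 6 libraries (3 parental, 3 Enz-R) were used. Libraries were sequenced as paired 150-base reads, per the labels' protocols. The submitters' processing notes name HISAT2 and the GRCh38 build. Not given in the sources used here are the version of HISAT2, the annotation, the counting tool and its strand setting. The authors deposited raw counts per gene, whole numbers before any scaling. Positions, exon lengths and exon overlaps came from GENCODE 29.

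The quasi-likelihood test of edgeR 4.0.16 (R 4.3.3) was run on the counts with filterByExpr, TMM scaling and no covariate, with Benjamini-Hochberg adjustment over 19029 genes and a threshold of 0.05. The SE was derived from the log2 fold change and the F statistic. The members and lists were chosen with earlier results of these data known. Named are called members with at least 2-fold change and 1 CPM in the higher group, the 2 members of each family with the highest level, and up to 3 called genes per list by size of change with the same minimum. Other called or untested members and the flanking genes named beside them were added as context. Some genes and motifs that these rules and lists cover are not reported here.

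Alternatives were a replicate block, leaving out each library, DESeq2 1.42.0 and its size factors, total count scaling, no filter, at least 50 counts in 3 libraries, and limma 3.58.1 voom. Leaving out mitochondrially encoded genes before scaling was added after seeing the data. Replicate libraries differed by more than counting error (chi-square per degree of freedom 4.14 to 10.2). Tables and figures used Python 3.11.15, pandas 2.3.3, numpy 2.4.6, scipy 1.17.1 and matplotlib 3.10.9.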

Additional observations from a re-analysis of the deposited data

How the results depend on the processing

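Over the 14 alternatives, the number of members called higher was 13 to 17 (17 in the analysis reported) and lower 15 to 20 (17 reported). Pathway genes called higher were 13 to 21 (19 reported) and lower 24 to 33 (28 reported). Leaving out 1 library at a time gave 15 to 17, 16 to 17, 17 to 19 and 25 to 28. With total count scaling, which moved the median of all tested genes from 0.01 to -0.08, they were 15, 20, 13 and 33. With at least 50 counts in 3 libraries fewer members were tested (36), and 13 were higher and 15 lower. No called member changed sign in any alternative. Calls were lost for ST3GAL5 in 7 of the 14, for ST6GALNAC4 in 5 and for GALNT3 in 2, and those gained were of FUT2, B3GNT2, GALNT11 and ST3GAL1. The 16 called members with at least 2-fold change and 1 CPM in the higher group kept their call and direction wherever they were tested: ST6GALNAC1 ranged from -6.53 to -6.08, GCNT1 from -5.06 to -4.77, GALNT16 from -4.36 to -3.97, ST8SIA2 from -3.25 to -2.25 and FUT6 from 1.05 to 1.71. FUT6, GALNT13, ST6GALNAC6 and ST8SIA2 were not tested under the filter of 50 counts. Without mitochondrially encoded genes no member's call changed.

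With the replicate number as a block, 17 members were higher and 17 lower, and 19 pathway genes were higher and 29 lower. Libraries with the same number did not deviate together (r = 0.049, -0.0081 and 0.011), so the numbers were not taken to pair the libraries. The replicate block changed no member's call. Low counts limit the precision for members under 1 CPM. Without the filter 66 members were tested, and no further member was called.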
